A study of Drosophila melanogaster with 8 samples.

Results

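The X chromosome of Drosophila melanogaster was described here as 19661 windows of 1 kb, chosen by position alone from 126378 such windows over all sequences. The windows were all rows on X that start 500 bp into a kb, from 0.5 to 21.4 Mb and without those from 4.25 to 4.39 Mb. They made up most of the 20931 windows of that kind on X, and both chromosome ends and the stretch left out were set aside by the rule. Each window carried 1 score in testes of can mutants and 1 score in testes of comr mutants. Per the file headers, the score relates H3K27me3 to input over 1000 bp and then went through a step named QN.

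The study profiled H3K27me3 by ChIP-seq in adult testes of 3 day old males, kept at 23 °C. The can group was homozygous for a mutation in can and the comr group for a mutation in comr, with 400 testes as starting material for the replicates. Each genotype had 2 H3K27me3 libraries and 2 input libraries, and 1 combined profile per genotype was deposited. Whole testes hold germ cells and somatic cells, so a difference in score may reflect the cells present or the mark within them, and these cannot be told apart. No wild-type profile was analysed here, and the labelled tissue was not checked against marker genes, as no gene annotation of the build was used.

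H3K27me3 is laid down by Polycomb repressive complex 2 on the chromatin of silenced genes, often over stretches of many kb that hold developmental regulators. Males carry a single X, and the somatic cells of males raise its expression through the MSL dosage compensation complex. can encodes a TBP-associated factor used in the testis, and comr encodes a subunit of the testis meiotic arrest complex. Both are needed for the gene expression programme of primary spermatocytes, and germ cells of both mutants arrest before the meiotic divisions. The comparison sets the mark in one arrested testis beside the other.

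Scores on X were shifted upward in both mutants, and the shift was larger in can. In can the X windows averaged 0.13 and in comr 0.07, while the 92506 windows of 2L, 2R, 3L and 3R averaged 0.01 in both. The median X window scored 0.12 in can and 0.06 in comr. A score above 0 was held by 57.0% of X windows in can and by 53.4% in comr, where the autosomal arms had 50.3% and 50.4%. High windows were more frequent on X too. A score of 1 or more was reached by 9.77% of X windows in can and by 8.26% in comr, and on the arms by 2.84% and 3.05%. Scores of -1 or less were also more frequent on X, at 5.14% for can and 5.72% for comr, where the arms had 3.08% and 3.34%. Adjacent windows scattered more widely on X: the SD was 0.65 for can and 0.64 for comr, where the arms had 0.46 and 0.45. The part of that scatter in the share of extreme windows was not tested.

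In bins of 100 kb the upward shift of X was spread over most of the chromosome. Of 208 bins with at least 20 windows, 148 (71.2%) had a mean above 0 in can and 130 (62.5%) in comr. On the autosomal arms 47.6% and 47.3% of 965 bins were above 0. The X bins spanned -0.31 to 0.71 in can, and in comr they spanned -0.47 to 0.68. The middle of the distribution moved rather than only its upper end. The quartiles of the X bins were -0.02 and 0.25 for can, and -0.09 and 0.21 for comr. The SD over bins was 0.18 in can and 0.21 in comr, close to the 0.17 and 0.21 of the arms.

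**Figure D1:**
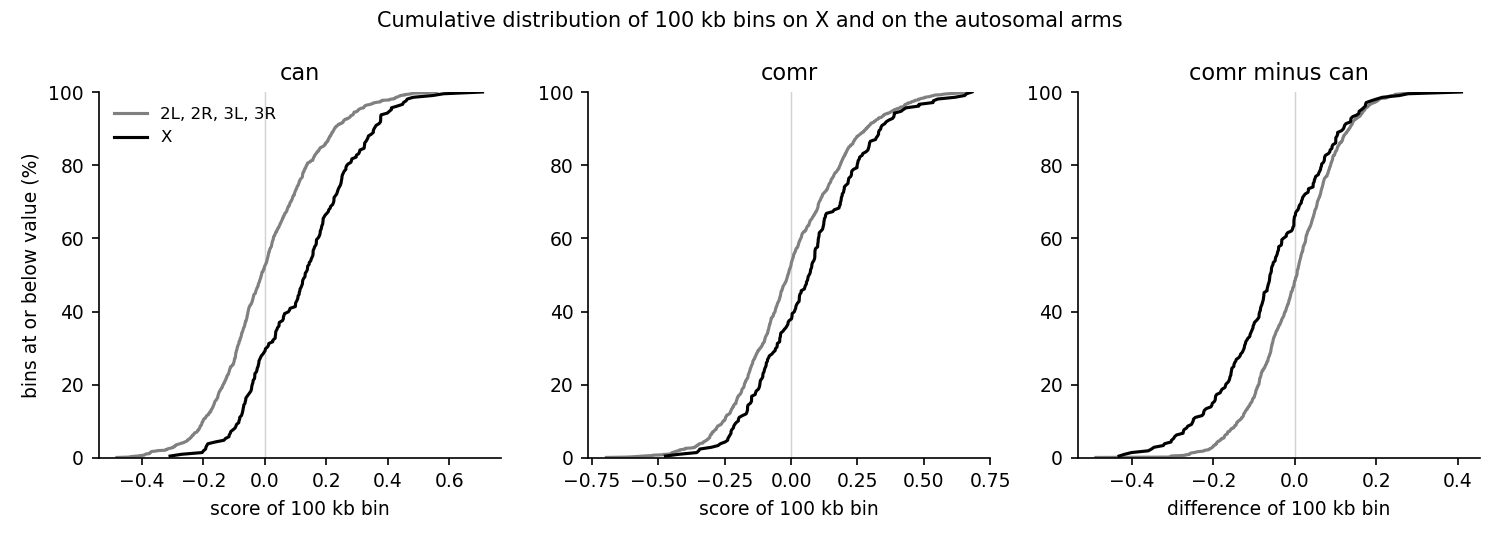
Cumulative share (percent) of 100 kb bins at or below each score in can (left) and comr (middle), and at or below each difference, comr minus can (right), for 208 bins of X (black) and 965 bins of 2L, 2R, 3L and 3R (grey). The X curve lies to the right of the grey one in both mutants, with a wider gap in can, and to the left of it for the difference below about 0.1.

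The mark was not even along X, and can and comr shared the broad outline. Within the range of the rule both were highest in the outer segments and lowest in the middle, with segment borders drawn after the values were seen. From 0.5 to 3 Mb, on the telomere side, the mean over 25 bins was 0.33 ± 0.14 in can and 0.26 ± 0.18 in comr (SD over bins). All 25 of these bins were above 0 in can and 24 in comr. From 3 to 11 Mb the mean fell to 0.10 ± 0.15 in can and 0.06 ± 0.19 in comr (SD, 79 bins). The segment from 11 to 17 Mb was the lowest, at 0.01 ± 0.12 in can and -0.05 ± 0.18 in comr (SD, 60 bins). Here 30 of the 60 bins were above 0 in can and 25 in comr. Toward the centromere, from 17 to 21.4 Mb, the mean rose again to 0.23 ± 0.15 in can and 0.14 ± 0.21 in comr (SD, 44 bins). These SDs measure variation along the chromosome within 1 profile and not between animals or libraries.

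At the borders set by the rule the scores did not share 1 level. On the telomere side the 100 kb just outside scored 0.40 in can and 0.36 in comr, and the 100 kb just inside 0.18 and 0.12. The outermost X was not high as a whole: all 422 windows before the rule averaged 0.06 in can and -0.01 in comr, and all 708 after it 0.06 in both. On the centromere side the last 100 kb inside scored 0.06 in can and 0.20 in comr, and the 61 windows just outside 0.03 and 0.16. The stretch left out was high in both, with 0.56 in can and 0.51 in comr over 140 windows. Before it, 49 windows averaged -0.11 in can and -0.04 in comr, and after it 50 windows averaged 0.30 and 0.49.

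**Figure D2:**
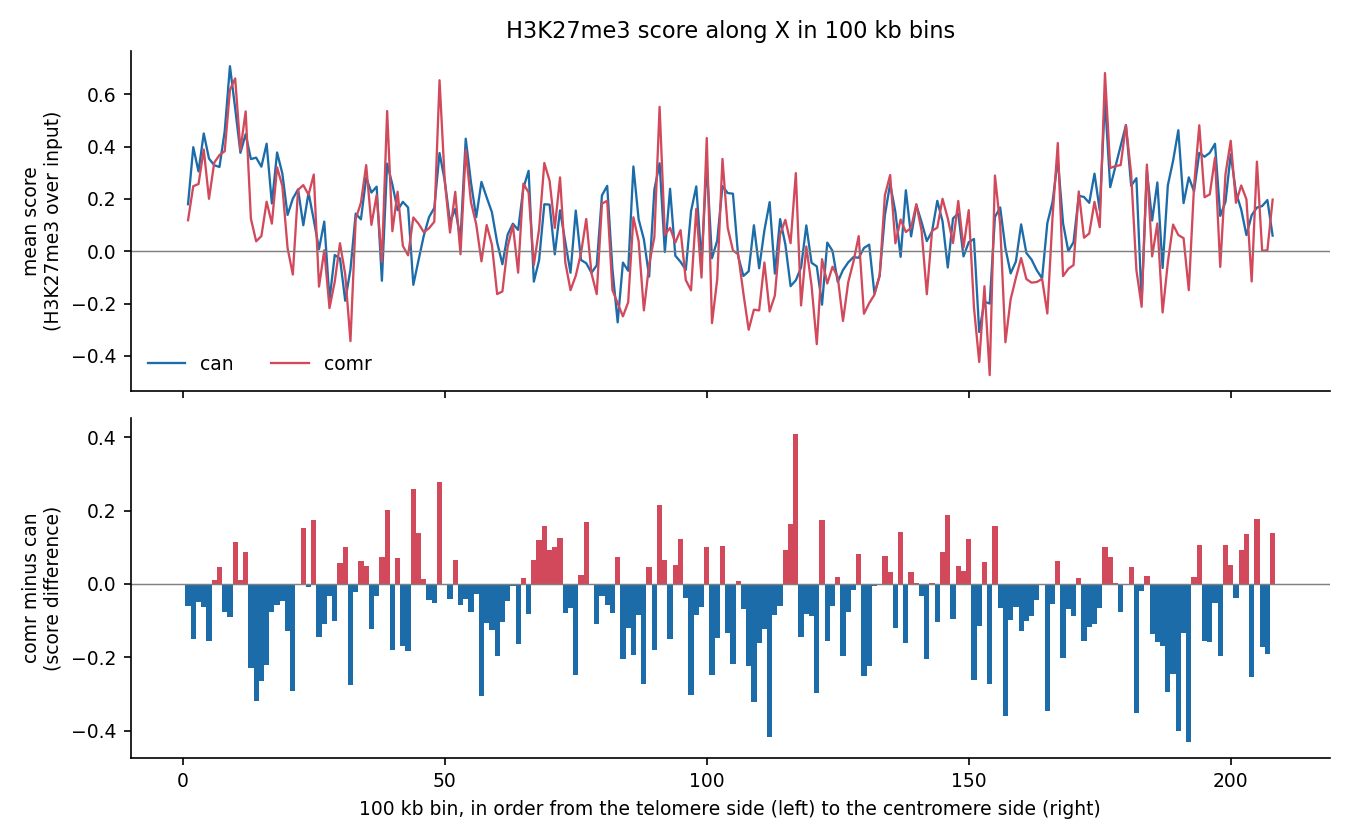
Mean score in can (blue) and comr (red) in 208 bins of 100 kb, in order along X from the telomere side to the centromere side (top), and the difference comr minus can in each bin (bottom; blue below 0, red above). Both profiles are highest in the outer segments of this range and lowest in the middle, and 137 of the 208 differences are below 0.

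Some of the highest bins lay close together. No region was given a gene name, since no annotation of the dm3 build was used here. Among the 10 bins with the highest mean of both profiles, 4 lay between 1.2 and 1.7 Mb. The bin from 1.3 to 1.4 Mb stood first, at 0.71 ± 0.05 for can and 0.62 ± 0.06 for comr (standard error over 100 windows). In it 89.0% of the windows were above 0 in can and 88.0% in comr, so the high mean did not rest on a few windows. Next to it, 1.4 to 1.5 Mb scored 0.55 ± 0.06 in can and 0.66 ± 0.06 in comr. The bin from 1.6 to 1.7 Mb scored 0.45 ± 0.06 and 0.53 ± 0.06, and that from 1.2 to 1.3 Mb 0.46 ± 0.07 and 0.38 ± 0.07. In all 4 of these bins the mutants differed by less than 2 standard errors over windows, which hold no scatter between libraries.

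Another 3 of the top 10 lay apart from each other between 18 and 20 Mb. That range also held low bins, such as the one from 18.8 to 18.9 Mb, at -0.19 in can and -0.21 in comr. The bin from 18.1 to 18.2 Mb scored 0.58 ± 0.05 in can and 0.68 ± 0.07 in comr, which made it first in comr and second in can. The bin from 18.5 to 18.6 Mb scored 0.48 in both mutants, with a difference of -0.001 ± 0.080. The bin that starts at 19.9 Mb scored 0.38 ± 0.06 in can and 0.48 ± 0.06 in comr. The other 3 bins of the top 10 scored higher in comr, by 0.28 ± 0.09, 0.22 ± 0.08 and 0.20 ± 0.08 (standard error over windows). They were 5.4 to 5.5 Mb (0.38 in can and 0.65 in comr), 9.6 to 9.7 Mb (0.34 and 0.55) and 4.4 to 4.5 Mb (0.34 and 0.54). The last of them lies just beyond the stretch left out. These errors hold no scatter between libraries. The wider spread of comr over bins by itself favours comr in bins picked by a high mean of both.

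At a level of 0.5 in both mutants, 10 kb bins formed short runs of at most 40 kb. Run length depends on that level and on scatter between windows, and does not measure the length of a high region. The whole 100 kb bin from 1.3 Mb averaged 0.71 in can and 0.62 in comr. Of 2019 bins of 10 kb with at least 5 windows, 79 (3.91%) scored at least 0.5 in both mutants, against 1.63% of 9397 bins on the arms. They formed 59 runs of consecutive bins, and 44 of these were single bins. The 2 longest spanned 40 kb. One, at chrX:1590000-1629999, scored 0.60 ± 0.09 in can and 0.78 ± 0.09 in comr. The other, at chrX:18140000-18179999, scored 0.72 ± 0.10 in can and 0.82 ± 0.09 in comr. A run of 30 kb at chrX:18470000-18499999 scored 0.65 ± 0.11 and 0.77 ± 0.10. The level of 0.5 was set after the data were seen. Coordinates are those of dm3 as deposited and give the range of row starts that a run covers.

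The 5 lowest bins lay at several places away from the ends. The bin from 15.7 to 15.8 Mb had the lowest mean of both, with -0.31 ± 0.06 in can and -0.42 ± 0.06 in comr. Of its 96 windows, 24 were above 0 in can and 23 in comr. The bin that starts at 15.9 Mb followed with -0.20 ± 0.09 and -0.47 ± 0.11, over 53 windows only, as many positions there had no row. The bin from 8.8 to 8.9 Mb was low in both, at -0.27 ± 0.08 in can and -0.20 ± 0.07 in comr. Low scores in the bins from 12.6 and from 3.6 Mb came mainly from comr, with -0.36 and -0.34, against -0.06 and -0.07 in can. Values of -0.5 or less in both mutants were found in 9 of the 10 kb bins (0.446%), against 1.02% on the arms.

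The mutants followed each other along X, less closely in smaller bins. Across bins, which are not independent replicates, the scores correlated at r = 0.76 in 100 kb bins (Spearman's rho = 0.73) and at 0.51 in 10 kb bins (rho = 0.50). On the arms the same values were 0.87 and 0.68. Both mutants were above 0 in 115 of the 208 bins of 100 kb and both below 0 in 45. In the other 48 bins the signs were opposite, and can held the positive sign in 33 of them. In 1 kb windows the signs were opposite in 41.0% of windows on X and in 37.5% on the arms. Of the windows that reached a score of 1, 264 did so in both, out of 1921 in can (and 1624 in comr). Over all 19661 X windows, 9.77% reached it in can and 8.26% in comr. On the arms 386 windows did so in both, out of 2625 in can and 2819 in comr. There the shares over all 92506 windows were lower, at 2.84% and 3.05%.

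**Figure D3:**
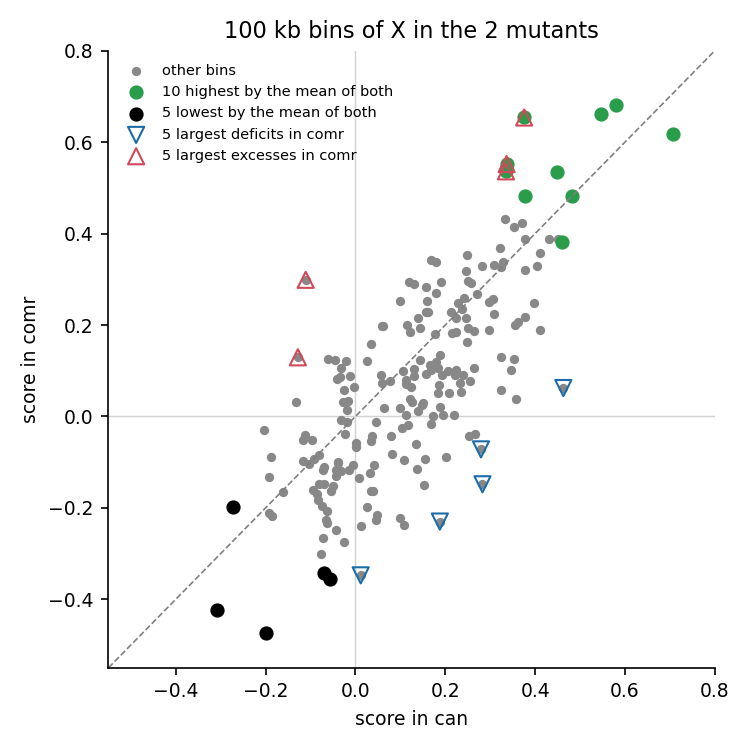
Score in comr against score in can for the 208 bins of 100 kb on X; the dashed line marks equal scores, filled symbols mark the 10 highest and 5 lowest bins by the mean of both, and triangles mark the 5 largest differences in each direction. Most bins lie below the line, while most of the 10 highest lie above it.

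X scored lower in comr than in can on average, by a small amount. The mean difference, comr minus can, was -0.056 ± 0.010 (standard error over 208 bins of 100 kb), and 137 bins (65.9%) were lower in comr. The 95% Wilson interval of that share was 59.2 to 72.0%, which treats bins as independent and covers counting error only. Over all bins of X, 2L, 2R, 3L, 3R and 4, 52.1% were lower in comr. The arms had a mean difference of 0.00, with 48.3% of bins lower. In smaller units the share on X was closer to that of the arms. It was 58.2% in 10 kb bins and 52.3% in 1 kb windows, against 50.1% and 49.4% on the arms. The mean difference on X was not smaller in these units, at -0.059 in 10 kb bins and -0.056 in windows. Its SD was 0.14 in 100 kb bins, 0.31 in 10 kb bins and 0.87 in windows. The same shift against a wider spread gives a share closer to an even split by construction. The 2 profiles had the same distribution over all rows by construction, so a lower X in comr must be offset elsewhere, and the total amount of the mark cannot be compared. Since each genotype has a single profile, this difference had no replicate check and no test.

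The difference was also set out by the level of the bins. The wider spread of comr over bins by itself makes comr minus can rise with the mean of both, so the order of the groups that follow is a description. When X bins were ranked by the mean of both profiles and divided into 5 groups, the lowest group scored -0.09 in can and -0.19 in comr. In that group 35 of 42 bins were lower in comr, by 0.10 on average. The next 3 groups had mean differences of -0.07, -0.07 and -0.04. The highest group scored 0.36 in both, with a mean difference of 0.00 and 19 of 42 bins lower in comr. On the arms the same ranking ran from -0.06 in the lowest group to 0.06 in the highest. The order was the same there, around 0 in place of a value below 0.

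The difference was uneven along X. By 1 Mb regions it was largest from 19 to 20 Mb, with 0.25 in can and 0.05 in comr, and from 11 to 12 Mb, with 0.04 and -0.13. In these 2 regions 8 of 10 and 9 of 10 bins were lower in comr. From 6 to 7 Mb all 10 bins were lower in comr, where the scores were 0.12 and 0.01. From 7 to 8 Mb the direction was opposite in 7 of 10 bins, with 0.08 in can and 0.13 in comr. The difference of one 100 kb bin said little of the next one, with a correlation of 0.08 between neighbours. Scores of neighbouring bins correlated at 0.54 in can and 0.41 in comr. In 10 kb bins the difference correlated at 0.21 between neighbours, at 0.06 over 50 kb and at 0.02 over 100 kb.

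The 5 largest deficits of comr in 100 kb bins lay from 11.7 Mb on, and 4 of the 5 largest excesses lay before 10 Mb. The bin from 19.7 to 19.8 Mb scored 0.28 ± 0.07 in can but -0.15 ± 0.06 in comr, a difference of -0.43 ± 0.08. The bin from 11.7 to 11.8 Mb scored 0.19 ± 0.07 and -0.23 ± 0.07, a difference of -0.42 ± 0.09. The bin from 19.5 to 19.6 Mb was among the highest of X in can, at 0.46 ± 0.06, and stood at 0.06 ± 0.05 in comr. Further deficits lay at 16.2 to 16.3 Mb, with 0.01 in can and -0.35 in comr, and at 18.7 to 18.8 Mb, with 0.28 and -0.07. In the other direction, 12.2 to 12.3 Mb scored -0.11 ± 0.07 in can but 0.30 ± 0.07 in comr, an excess of 0.41 ± 0.10. The next excess, 0.28 ± 0.09, was in the high bin from 5.4 Mb, and the bin that starts at 4.9 Mb scored -0.13 in can and 0.13 in comr.

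To find where the mutants differed over longer stretches, the difference was averaged over 50 kb (5 bins of 10 kb) centred on each 10 kb bin. Of 2019 bins, 177 (8.77%) had a running difference of -0.3 or less and 42 (2.08%) one of 0.3 or more. Over all sequences tested, 2.6% of bins passed in the lower direction and 1.03% in the higher one. On the arms the shares were 1.07% and 0.810%. The window scatter of the difference was 0.86 on X and 0.59 on the arms. With the threshold lowered to 0.21 on the arms in proportion to that scatter, a choice made after the data were seen, 6.22% of arm bins passed as lower and 5.64% as higher. On that footing X had more bins that were lower in comr and fewer that were higher.

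Runs of at least 3 such bins gave 22 stretches lower in comr and 4 higher, together 1110 kb (5.50% of the bins tested) and 200 kb (0.991%). The arms held 12 stretches lower in comr (0.597%) and 7 higher (0.330%) at the same threshold. The wider window scatter of X (0.86, against 0.59 on the arms) makes that threshold easier to pass on X. Stretches were not counted at the scaled threshold, so these shares are not on an equal footing. The excess of deficits was not kept when the small shift of the whole chromosome was taken out. Once the difference was centred on its median over X windows (-0.05), 11 stretches were lower and 11 higher in comr. After quantile normalization of comr to can within X there were 11 and 12. Both steps bring the directions closer by construction, so they do not show what the excess came from.

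**Figure D4:**
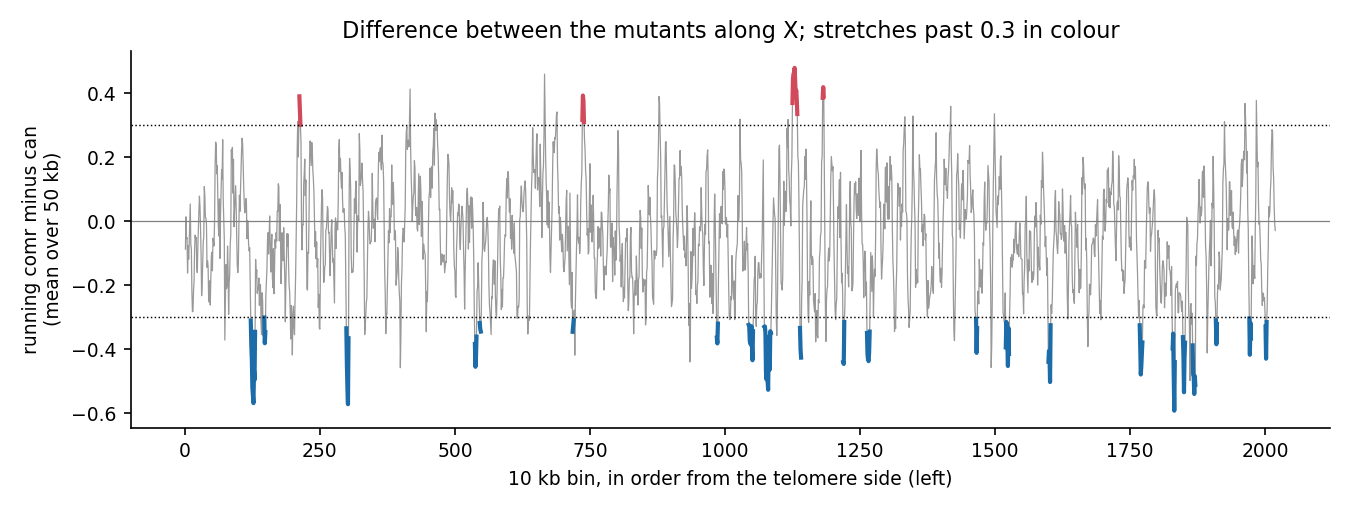
Difference comr minus can averaged over 50 kb at each of 2019 bins of 10 kb along X (grey), with the 22 stretches lower in comr in blue and the 4 higher in comr in red; dotted lines mark -0.3 and 0.3. Deficits are spread along the chromosome, and no stretch from 17 Mb on was higher in comr.

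The 22 deficits lay mostly where can was above 0 and comr below. In 17 of them the mean was above 0 in can and below 0 in comr, in 4 it was above 0 in both and in 1 below 0 in both. On the arms 8 of the 12 stretches lower in comr likewise had can above 0 and comr below. On average they scored 0.26 in can and -0.18 in comr, while the 100 kb on either side scored 0.09 and 0.00. Since the stretches were chosen for a gap between the mutants, a high can score and a low comr score in them follow in part from that choice, and some were no higher in can than their surroundings. The one from 16.22 Mb scored 0.01 in can, as did its surroundings. They were 30 to 130 kb long, and the share of single windows lower in comr ran from 58.6 to 82.0% with a median of 69.6%. By position, 2 began before 3 Mb, 5 from 3 to 11 Mb, 7 from 11 to 17 Mb and 8 from 17 Mb on. The share of 10 kb bins past the threshold in this direction was 9.17%, 5.46%, 11.2% and 11.1% in these segments.

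The longest deficit, at chrX:11660000-11789999, spanned 130 kb and scored 0.19 ± 0.06 in can but -0.24 ± 0.07 in comr (standard error over 122 windows). All 13 of its 10 kb bins were lower in comr, and they spanned -0.24 to 0.53 in can, but -0.81 to 0.21 in comr. The next, at chrX:1760000-1849999, scored 0.48 ± 0.06 in can and 0.01 ± 0.06 in comr, with 9 of 9 bins lower. It lies close to the high bins around 1.3 to 1.7 Mb but did not continue them, as both profiles were lower in between. No 10 kb bin with a start of 1710000 to 1750000 scored above 0.31 in can or above 0.17 in comr. In can the 10 kb bins of the stretch ran from 0.25 to 0.76, and in comr from -0.46 to 0.35.

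A group of 3 deficits fell between 19.36 and 19.8 Mb. The stretch at chrX:19360000-19409999 scored 0.41 ± 0.10 in can and -0.07 ± 0.09 in comr. The one at chrX:19550000-19599999 scored 0.45 ± 0.08 and -0.09 ± 0.07, and 82.0% of its windows were lower in comr. The one at chrX:19740000-19799999 scored 0.43 ± 0.10 and -0.09 ± 0.08, and all 6 of its bins were lower in comr. It ends where the deposited rows become sparse. All 3 had nearly the same pair of levels. In the surroundings of the 3 stretches, can scored 0.19 to 0.28 and comr 0.02 to 0.07.

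The other deficits named by the same rule, ranked by summed difference, gave differences of -0.39 to -0.52. At chrX:11340000-11429999 can scored 0.02 ± 0.09 and comr -0.37 ± 0.09. At chrX:18720000-18779999 they were 0.32 ± 0.08 and -0.13 ± 0.09, and at chrX:13570000-13629999 0.12 ± 0.09 and -0.28 ± 0.11. At chrX:16220000-16289999 can scored 0.01 ± 0.08 and comr -0.40 ± 0.10. At chrX:6190000-6229999 can scored 0.42 ± 0.12 and comr -0.09 ± 0.13. The deficits from 11.34, 13.57 and 16.22 Mb lay in the low middle of X, where can was at 0.12 or less, and the one from 6.19 Mb between surroundings of 0.15 in can and 0.05 in comr.

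All 4 stretches higher in comr were below 0 in can and above 0 in comr, which follows in part from their choice for a gap. The longest, at chrX:12180000-12279999, spanned 100 kb and scored -0.18 ± 0.07 in can and 0.26 ± 0.07 in comr. Of its 10 bins, 9 were higher in comr, and the surroundings scored -0.06 and -0.03. At chrX:12740000-12769999 the scores were -0.45 ± 0.11 and 0.13 ± 0.12, and 80.0% of the 30 windows were higher in comr. At chrX:8190000-8229999 they were -0.22 ± 0.09 and 0.16 ± 0.11. At chrX:2690000-2719999, with 23 windows, they were -0.02 ± 0.16 and 0.39 ± 0.19, and 2 of 3 bins were higher in comr. On the arms 6 of the 7 stretches higher in comr were above 0 in both mutants.

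**Figure D5:**
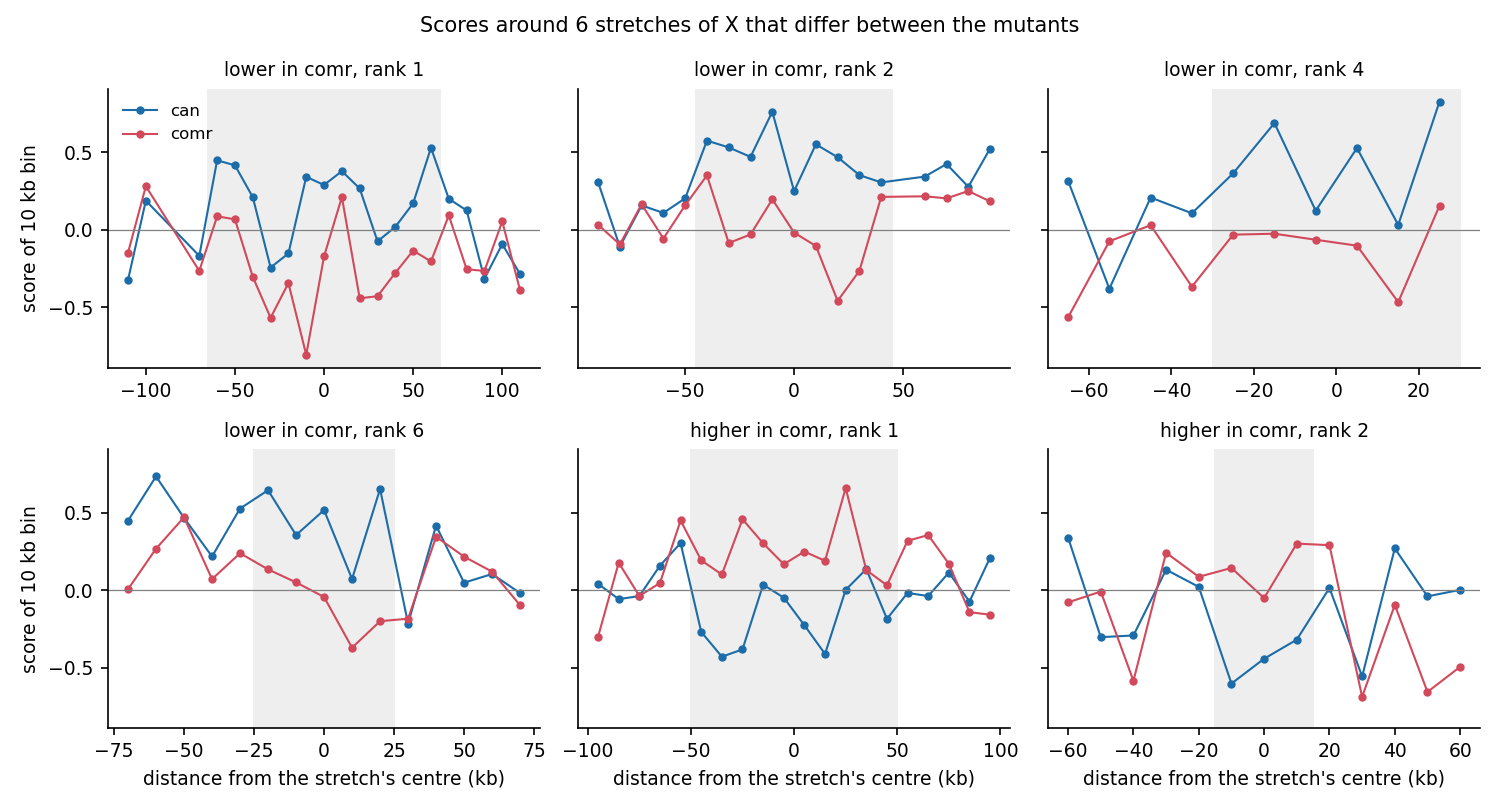
Score of 10 kb bins in can (blue) and comr (red) against distance from the centre (kb) of 4 stretches lower and 2 stretches higher in comr, with the stretch itself shaded and bins of fewer than 5 windows not drawn. Ranks are by summed difference; the gap between the profiles varies from bin to bin inside the shading, and single bins outside it differ as widely, as at the left of the panel for rank 4.

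The size of these differences was partly set by picking them. When stretches were sought in the windows of even kb alone, 38 were lower in comr, by a mean difference of -0.47, and the windows of odd kb in the same stretches gave -0.16. In 29 of the 38 the windows not used for the choice were also lower in comr. Sought in windows of odd kb, 43 were lower, and windows of even kb gave -0.23, with 37 of 43 in the same direction. Stretches higher in comr held up less evenly. The 11 found in windows of even kb kept a mean of 0.19, with 10 of 11 in the same direction. The 24 found in windows of odd kb fell to 0.01, with 14 of 24 in the same direction. For comparison, the mean over all X windows was -0.04 for odd kb and -0.07 for even kb. Each set held fewer windows per stretch than the full one, and both came from the same libraries, so these values describe scatter between windows and not between animals.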

How the data were processed

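The deposited score was used as given: per the file headers it is H3K27me3 over input in 1000 bp bins after a step named QN, with 1 profile per genotype. Coordinates follow dm3, per the submitters' processing notes. Not given in the sources used here were the aligner, filters, scale base and read depth. Scores ran from -5.58 to 4.27, and the sorted values of both profiles were identical. Rows lie 100 bp apart and overlap, so 1 row per kb was kept. Bins needed at least 5 (10 kb) or 20 (100 kb) windows, and running differences at least 25 windows. The named regions were the 10 highest and 5 lowest 100 kb bins by the mean of both, the 5 largest differences and the 10 stretches with the largest summed difference in each direction (all 4 where fewer). The members, bins and thresholds were chosen with earlier results of these data known. No test or p-value was possible with 1 profile per genotype. The stretch search was also run on simulated data with planted stretches and independent scatter between windows. Its outcome is not given here and was not used to judge the stretches reported. Alternatives covered other rows, medians, bin edges, thresholds, running widths and scaling within X. Python 3.11.15, numpy 2.4.6, pandas 2.3.3, scipy 1.17.1 and matplotlib 3.10.9 were used. The read depth is unknown, so scores carry no counting interval.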

Additional observations from a re-analysis of the deposited data

How the results depend on the processing

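No paired analysis was possible because the libraries of a genotype stand behind a single profile, and no replicate could be dropped. The means and the mean difference moved by less than their standard error over bins with other rows or medians. The correlations over 100 kb and 10 kb bins (0.76 and 0.51) came to 0.75 and 0.51 with rows starting at each kb and to 0.73 and 0.50 as Spearman's rho. The share of 100 kb bins lower in comr was 53.4% once centred on the X median, a step that brings both directions closer by construction. Bins past the running difference, lower and higher in comr (177 and 42), numbered 439 and 147 at a threshold of 0.2, 56 and 9 at 0.4, 257 and 95 over 3 bins, 91 and 13 over 9 bins, 94 and 82 after normalization within X, and 101 and 76 after centring. Stretches (22 and 4) numbered 63 and 19 at 0.2, 9 and 1 at 0.4, 40 and 10 over 3 bins, 12 and 1 over 9 bins, 11 and 12 after normalization within X, 11 and 11 after centring, 42 and 9 with at least 2 bins, and 11 and 1 with at least 5. Fewer bins pass a stricter threshold and fewer runs a longer minimum length, by construction. Centring and normalization within X likewise bring both directions closer by construction, and a running mean over more bins averages out more scatter. The cause of any other shift was not tested. The mean difference of stretches fell from -0.44 to -0.16 and -0.23, and from 0.45 to 0.19 and 0.0074, in windows not used to find them (the second value of each pair was added after the data were seen). With rows starting at each kb, 16 of the 22 deficits and 3 of the 4 excesses overlapped a stretch found again, out of 24 and 5. Those rows overlap the windows used and come from the same profiles, so agreement with them is in part built in. Leaving out windows beside positions without a row, an alternative added after the data were seen, gave 20 and 3 stretches. Of 72 recomputed differences over 36 named regions, 9 moved by more than their standard error, all with medians, and 0 changed sign. These used overlapping rows or medians of the same windows, and many regions were picked for a large difference. A kept sign was therefore in part built in. Unknown depth and combined replicates limit each value.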

Other observations

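Positions without a deposited row were somewhat more frequent on X than on the autosomal arms. Of 20760 kb positions covered by the rule, 1099 (5.29%) had no row, against 4.01% of 96366 on the arms. They formed 356 gaps, of which 206 were a single kb and 12 at least 10 kb. The longest spanned 38 kb, with row starts from 15913500 to 15950500, and the 42 windows within 25 kb of it scored -0.20 in can and -0.52 in comr. The 19 kb gap from 20162500 lay in contrast within high chromatin, with 0.58 in can and 0.50 in comr over 50 windows. Windows beside a missing position averaged -0.01 in can and -0.11 in comr (689 windows), against 0.13 and 0.08 for the others.

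The most extreme single windows of X were seldom extreme in both mutants. The highest can window, from 16063500, scored 3.87 in can and 0.65 in comr, and the highest comr window, from 2353500, scored 1.34 in can and 3.62 in comr. The lowest comr window, from 15957500, scored -0.06 in can and -4.22 in comr, and it lies near the longest gap. Windows that were high in both included those from 11672500, with 2.62 in can and 2.58 in comr, and from 5495500, with 2.62 and 2.48. Chosen after their values were seen, these windows are described only.

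Bins of 10 kb at or above 0.5 in can but below 0 in comr numbered 30 on X (1.49%), against 3 on the arms (0.0319%). The opposite pattern was found in 8 bins on X (0.396%) and 13 on the arms (0.138%). The wider window scatter of X moves with both shares, and its part in them was not tested.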
